A study of Mus musculus with 16 samples.

Results

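The genes described here are 36 genes of the amino-acid response that the transcription factor ATF4 is known to drive. They were taken by symbol from a table of 52636 mouse gene IDs, through the gene names of GENCODE release M21 and not by a threshold on their values. All 36 were found in the table and all 36 were among the 12742 genes that passed the filter on low counts. By role they comprised 7 regulators, 5 effectors of stress, 9 enzymes of amino-acid and one-carbon synthesis, 5 transporters and 10 cytosolic tRNA synthetases.

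RNA was sequenced from CRAFR26 cells, mouse embryonic stem cells targeted with a c-RAF kinase construct that 4-hydroxytamoxifen (4OHT) switches on, so that ERK is activated. The cells had been taken to the state labelled RSC, which was kept in medium with an inhibitor of WNT secretion (IWP2), the MEK inhibitor PD03 and LIF. In every group PD03 had been replaced for 48 h by 250 nM of the FGF receptor inhibitor PD17, so the 0h cells also carried that change. The group 0h had no 4OHT, the groups 2h and 4h had 250 nM 4OHT for 2 h and 4 h, and the group rev had 4OHT for 4 h and then a MEK inhibitor for 2 h, at a dose the labels used here do not give. Each group held 4 libraries, 2 from clone 4 and 2 from clone 8. The labels do not say whether the 2 libraries of a clone were separate cultures, so p-values measure the spread between these libraries, which may in part be technical. No group with 6 h of 4OHT was analysed here, so rev against 4h carries a further 2 h of culture as well as the inhibitor.

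ATF4 is a transcription factor whose mRNA is translated more efficiently when the initiation factor eIF2α is phosphorylated, which slows protein synthesis in general. The eIF2α kinases respond to uncharged tRNA, to unfolded protein in the endoplasmic reticulum, to double-stranded RNA and to lack of heme. ATF4 pairs with C/EBP proteins at composite elements near its target genes, which include amino-acid transporters, enzymes of serine, asparagine and proline synthesis, tRNA synthetases and a set of stress regulators that feed back on the pathway. RNA counts show neither the phosphorylation of eIF2α nor the amount of ATF4 protein.

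The composite element was searched as TGATGNAA, on both strands, in RefSeq promoters of build GRCm38.p6 that run from 250 bases before to 50 bases after each annotated start. Of the 36 genes, 30 had an entry there, and Slc7a3, Slc7a5, Cth, Nars, Wars and Cars did not. The element was present in 12 of the 30 (40%), namely Aars, Asns, Chac1, Gars, Iars, Nupr1, Pycr1, Slc7a11, Tars, Trib3, Vldlr and Yars, against 4.51% of all 27025 genes with an entry. The form TGATGCAA, which is one of the strings that TGATGNAA covers, was present in 9 of the 30 (30%) against 1.03% of all genes. The 4 promoters below are shown because Chac1, Nupr1 and Trib3 had the largest falls after induction among the genes that hold the element, while Asns holds the element and passed no test in any comparison of groups. Each runs from 220 bases before the start to 30 bases after it, 5′ to 3′ on the gene's strand, with the element in capitals (TTGCATCA and TTACATCA are its forms on the opposite strand).
Chac1, chr2:119351022-119351271, plus strand: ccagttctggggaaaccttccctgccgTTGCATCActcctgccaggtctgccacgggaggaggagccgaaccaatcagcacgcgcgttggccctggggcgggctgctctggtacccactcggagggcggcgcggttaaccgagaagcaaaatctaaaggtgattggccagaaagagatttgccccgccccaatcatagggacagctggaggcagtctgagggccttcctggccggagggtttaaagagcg
Nupr1, chr7:126625441-126625690, minus strand: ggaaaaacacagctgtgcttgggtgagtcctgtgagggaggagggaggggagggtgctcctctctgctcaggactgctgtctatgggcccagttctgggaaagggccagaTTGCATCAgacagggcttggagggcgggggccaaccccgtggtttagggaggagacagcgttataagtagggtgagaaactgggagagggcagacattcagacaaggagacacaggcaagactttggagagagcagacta
Trib3, chr2:152344031-152344280, minus strand: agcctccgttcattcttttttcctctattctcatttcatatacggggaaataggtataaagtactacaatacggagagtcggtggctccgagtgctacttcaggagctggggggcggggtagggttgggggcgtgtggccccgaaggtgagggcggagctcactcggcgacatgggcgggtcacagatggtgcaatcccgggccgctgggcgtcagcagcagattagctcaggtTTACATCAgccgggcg
Asns, chr6:7693180-7693429, minus strand: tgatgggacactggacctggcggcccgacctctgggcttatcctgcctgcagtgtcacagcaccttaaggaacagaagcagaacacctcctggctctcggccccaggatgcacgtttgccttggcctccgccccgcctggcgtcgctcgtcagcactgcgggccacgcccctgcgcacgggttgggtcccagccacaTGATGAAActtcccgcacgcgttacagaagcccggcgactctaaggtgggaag
Counted from the start, with negative positions before it, the element lay at -193 to -186 in Chac1, at -110 to -103 in Nupr1, at -23 to -16 in Asns, and at 15 to 22 in Trib3. A match of letters describes the promoter and does not show that a factor was bound.

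Library totals ran from 4313599 to 10444126 counts, of which 8 features that each held over 1% of all counts took 46.7% to 78.9%. The library rev clone 8 number 1 had the fewest counts outside those features and the highest share within them. Values are given as CPM, the count of a gene scaled to library depth with TMM factors, and log2 changes come from edgeR's quasi-likelihood fit to all 16 libraries with clone as a covariate. A gene is said to have risen or fallen where the Benjamini-Hochberg adjusted p over the 12742 tested genes was under 0.05. Of 8 known ERK response genes, 7 rose at 2h and 7 at 4h, with Egr1 at 7.30 on the log2 scale at 2h, and 6 of 8 fell at rev against 4h. The 7 pluripotency markers summed to between 739 and 1178 CPM in every library, and the 5 fibroblast markers to between 0.613 and 3.47 CPM. In bulk RNA, fewer cells of a type and less RNA per cell cannot be told apart.

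At 2h the ATF4 genes that moved mostly fell: 9 of 36 (25%) fell, where 7.48% of all tested genes fell. Of the 36, 1 gene, Sesn2, rose, where 9.49% of all tested genes rose (17% in either direction). At 4h against 0h 5 of 36 (13.9%) fell, against 5.56% of all genes, and 1, the cationic amino-acid transporter Slc7a3, rose, against 7.35% (12.9% in either direction). At rev against 0h 17 of 36 (47.2%) fell, against 4.94% of all genes, and none rose by edgeR, against 5.51% (10.5% in either direction). With no adjustment, at p under 0.05, 23 members were lower and 0 higher, and DESeq2 called 19, all lower. Other settings gave fewer at rev against 0h: 8 fell scaled by library totals and 5 with no clone covariate. At an adjusted p under 0.01 6 fell, and in clone 8 alone 6 fell. These 3 comparisons share the 0h libraries, so their counts are not independent of each other. The median log2 change of the 36 genes was -0.20 at 2h, -0.15 at 4h and -0.30 at rev, where the medians over all tested genes were 0.00, -0.01 and 0.00.

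At 4h against 2h 4 of 36 rose, against 5.78% of all tested genes, and none fell, against 6.36% (12.1% in either direction). With no adjustment 9 were higher and 3 lower at p under 0.05, and DESeq2 called 4. At rev against 4h 7 of 36 (19.4%) fell, against 5.1% of all genes, and 1, Ddit4, rose, against 4.5% (9.61% in either direction). Scaled by library totals, 4 fell and 0 rose. At rev against 2h 1 gene fell, against 1.01%, and none rose, against 0.769% (1.78% in either direction). Without adjustment 9 were lower and 1 higher at p under 0.05, and DESeq2 called 3. That gene was Mthfd2. The 14 members that passed in none of these comparisons, nor in that of 2h and rev with 0h and 4h, were Asns, Atf5, Cebpb, Cebpg, Cth, Eprs, Gars, Iars, Phgdh, Pycr1, Slc3a2, Slc7a11, Vldlr and Wars.

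**Figure D1:**
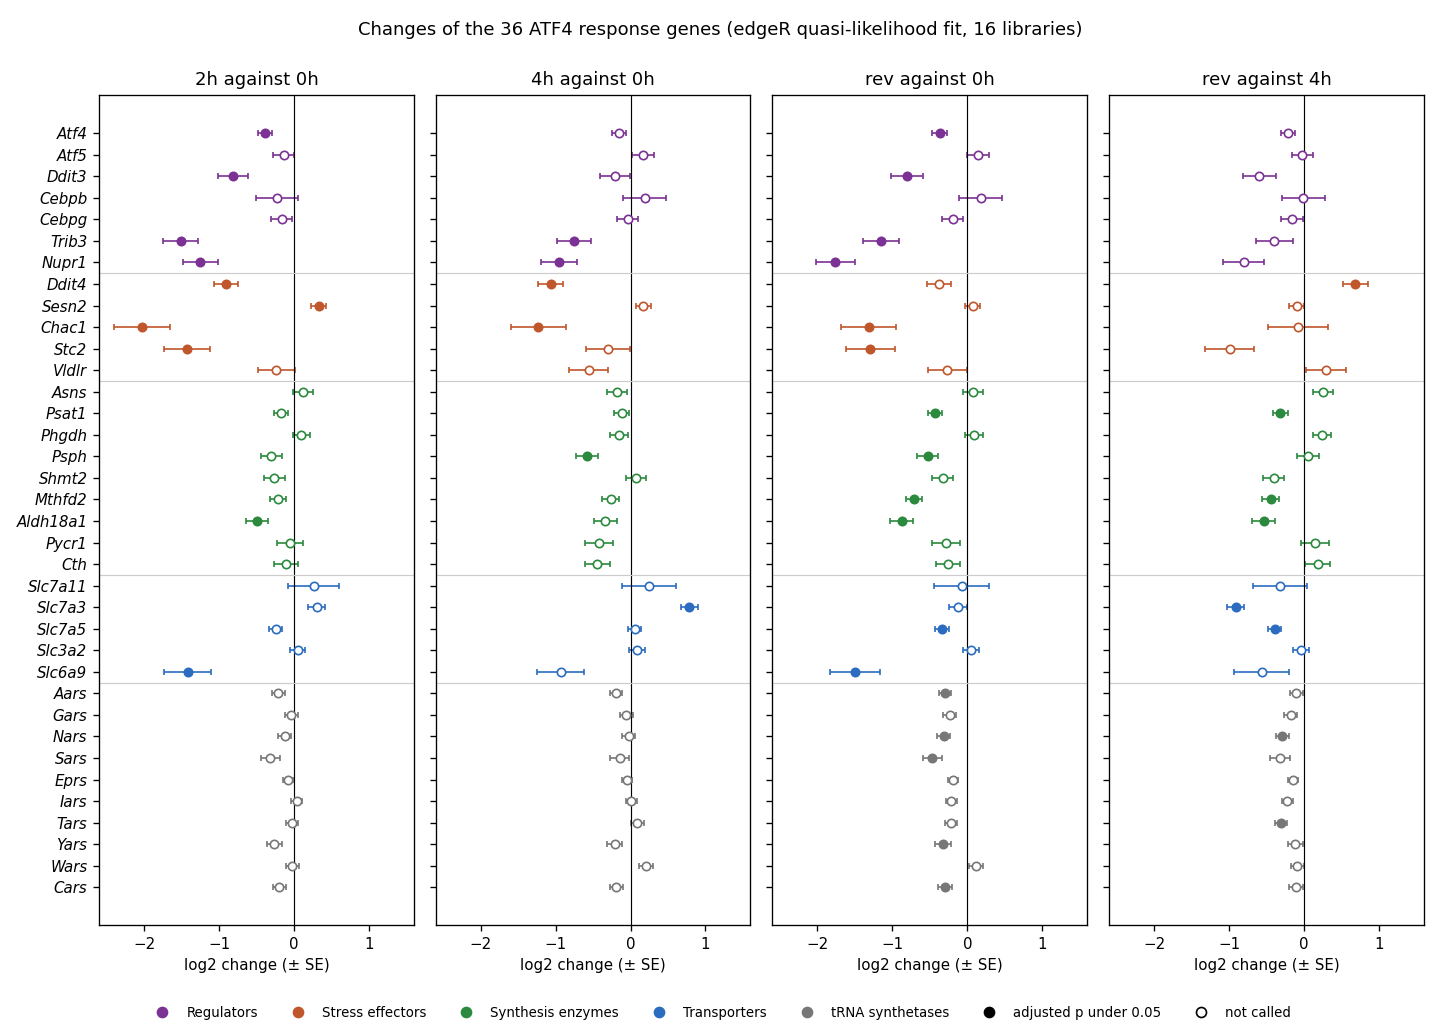
Log2 change (x axis, ± SE) of each of the 36 genes (y axis, in blocks by role) in 4 comparisons; filled points had an adjusted p under 0.05. Chac1, Stc2, Trib3, Slc6a9 and Nupr1 lie between -1.25 and -2.03 at 2h against 0h, while the tRNA synthetases stay between -0.31 and 0.03.

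Atf4 and 3 of the regulators known to act downstream of it fell, while Atf5, Cebpb and Cebpg passed in no comparison of groups. Of 7 regulators, 4 fell at 2h (Trib3, Nupr1, Ddit3 and Atf4), 2 at 4h (Nupr1 and Trib3) and 4 at rev against 0h (Nupr1, Trib3, Ddit3 and Atf4). The shares of all tested genes that fell were 7.48%, 5.56% and 4.94%. In the values by library that follow, the order within a group is always clone 4 number 1, clone 4 number 2, clone 8 number 1 and clone 8 number 2.

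Atf4 itself (chr15:80255184-80257541, plus strand) was at 146, 116, 132 and 123 CPM at 0h, 97.3, 101, 95.3 and 102 at 2h, 112, 117, 113 and 124 at 4h and 87.5, 85.2, 118 and 113 at rev. Each 2h library lay below each 0h library, whereas the 4h libraries overlapped them. At rev the 2 libraries of clone 4 were the lowest of the 16 and those of clone 8 lay near the lowest 0h library. Atf4 had a log2 change of -0.39 ± 0.10 (SE, adjusted p = 0.00891) at 2h, -0.15 ± 0.10 (SE, adjusted p = 0.319) at 4h and -0.37 ± 0.10 (SE, adjusted p = 0.0193) at rev against 0h. Scaled by library totals, Atf4 kept its direction and did not pass at 2h (adjusted p = 0.632) or at rev against 0h. With that scaling it also did not pass for 2h and rev against 0h and 4h.

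Trib3 (chr2:152337422-152344032, minus strand), a pseudokinase that restrains ATF4 and AKT, was at 31.4, 18.8, 16.3 and 15.1 CPM at 0h, 6.35, 7.74, 6.08 and 7.57 at 2h, 15.3, 13.5, 8.95 and 10.1 at 4h and 7.23, 6.31, 13.0 and 11.3 at rev. Its highest library was 0h clone 4 number 1, and each 2h and each rev library lay below each 0h library. For Trib3 the log2 change came to -1.51 ± 0.23 (SE, adjusted p = 2.63e-04) at 2h, -0.76 ± 0.23 (SE, adjusted p = 0.0347) at 4h and -1.15 ± 0.24 (SE, adjusted p = 0.00465) at rev against 0h. Between 2h and 4h Trib3 rose by 0.75 ± 0.24 (SE, adjusted p = 0.0491).

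Nupr1 (chr7:126623249-126630861, minus strand), a small stress-induced nuclear protein, was at 18.8, 11.4, 14.7 and 15.1 CPM at 0h, 8.69, 8.98, 3.80 and 4.98 at 2h, 8.40, 10.4, 6.13 and 6.89 at 4h and 4.07, 3.01, 6.36 and 5.50 at rev. Its 0h libraries were the highest of the 16, and those of the other 3 groups overlapped each other. The fitted log2 change of Nupr1 was -1.25 ± 0.23 (SE, adjusted p = 0.00151) at 2h, -0.96 ± 0.24 (SE, adjusted p = 0.0122) at 4h and -1.76 ± 0.26 (SE, adjusted p = 3.84e-04) at rev against 0h.

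Ddit3, which encodes CHOP, a C/EBP-family factor of prolonged stress, was at 11.2, 7.12, 8.51 and 7.18 CPM at 0h, 4.93, 5.94, 4.33 and 4.21 at 2h, 8.80, 8.38, 6.43 and 5.82 at 4h and 4.52, 3.49, 6.96 and 5.50 at rev. The 2h and rev libraries lay below the 0h libraries without overlap, and the 4h libraries overlapped them. The log2 change was -0.82 ± 0.20 (SE, adjusted p = 0.00910) at 2h, -0.21 ± 0.20 (SE, adjusted p = 0.539) at 4h and -0.81 ± 0.21 (SE, adjusted p = 0.0203) at rev against 0h. Scaled by library totals, the fall of Ddit3 at 2h did not pass (adjusted p = 0.167). Ddit3 shares 6.13% of its exon bases with a second annotated entry of the same symbol on the same strand. It shares 4.73% with genes on the opposite strand.

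Atf5, a factor related to ATF4, ran from 8.83 to 22.2 CPM over the 16 libraries with a log2 change of -0.14 at 2h. Cebpg, a C/EBP partner of ATF4, ran from 12.7 to 21.2 CPM with -0.17 at 2h. Cebpb, another such partner, ran from 1.40 to 8.93 CPM with -0.22 at 2h, and shares 20.7% of its exon bases with Tmem189 on the opposite strand.

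**Figure D2:**
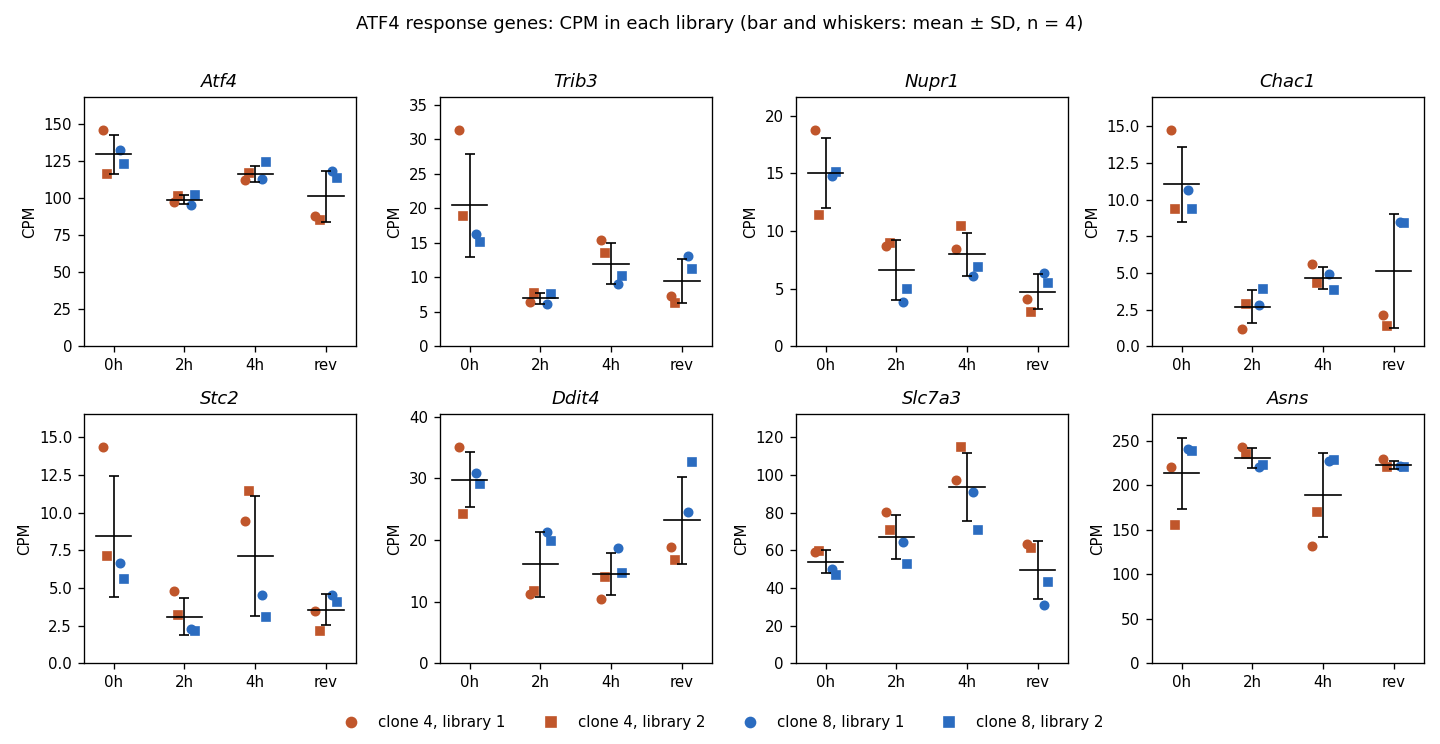
CPM (y axis, from 0) of 8 of the genes in the 4 groups (x axis), 1 point per library, coloured by clone, with the mean and SD of the 4 libraries. The 0h libraries lie above the 2h libraries without overlap for Atf4, Trib3, Nupr1, Chac1, Stc2 and Ddit4, Slc7a3 is highest at 4h, and Asns overlaps in all 4 groups.

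Among the effectors of stress, 3 of 5 fell at 2h (Chac1, Stc2 and Ddit4) and 1 rose (Sesn2). At 4h 2 of 5 fell (Chac1 and Ddit4), and at rev against 0h 2 of 5 fell (Chac1 and Stc2). Over all tested genes 7.48% fell and 9.49% rose at 2h, 5.56% fell at 4h and 4.94% fell at rev against 0h. Chac1 had the largest fall of the 36 genes at 2h and Ddit4 was the one member that rose between 4h and rev.

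Chac1 (chr2:119351229-119354381, plus strand), an enzyme that breaks down glutathione, was at 14.8, 9.40, 10.7 and 9.34 CPM at 0h, 1.17, 2.90, 2.81 and 3.93 at 2h, 5.60, 4.32, 4.93 and 3.83 at 4h and 2.15, 1.36, 8.48 and 8.44 at rev. The 0h libraries were the highest of the 16, and at rev both libraries of clone 8 lay just below their 0h libraries while both of clone 4 overlapped their 2h libraries. Chac1 had a log2 change of -2.03 ± 0.37 (SE, adjusted p = 0.00122) at 2h, -1.23 ± 0.36 (SE, adjusted p = 0.0306) at 4h and -1.32 ± 0.37 (SE, adjusted p = 0.0269) at rev against 0h.

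Stc2 (chr11:31357307-31370074, minus strand), a secreted glycoprotein of the stress response, was at 14.4, 7.12, 6.64 and 5.60 CPM at 0h, 4.80, 3.18, 2.28 and 2.17 at 2h, 9.47, 11.4, 4.52 and 3.06 at 4h and 3.50, 2.13, 4.54 and 4.09 at rev. The 2h and rev libraries lay below the 0h libraries, and the 4h libraries overlapped every other group, high in clone 4 and low in clone 8. For Stc2 the log2 change came to -1.43 ± 0.31 (SE, adjusted p = 0.00381) at 2h, -0.30 ± 0.29 (SE, adjusted p = 0.550) at 4h and -1.29 ± 0.32 (SE, adjusted p = 0.0157) at rev against 0h, with a rise of 1.13 ± 0.32 (SE, adjusted p = 0.0254) between 2h and 4h.

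Ddit4 (chr10:59949669-59951834, minus strand), an inhibitor of the growth kinase complex mTORC1 also called REDD1, was at 35.2, 24.3, 30.8 and 29.0 CPM at 0h, 11.3, 11.7, 21.3 and 19.8 at 2h, 10.4, 14.0, 18.7 and 14.7 at 4h and 18.9, 16.8, 24.5 and 32.6 at rev. Both the 2h and the 4h libraries lay below the 0h libraries, and the rev libraries overlapped all 3 other groups. The fitted log2 change of Ddit4 was -0.91 ± 0.16 (SE, adjusted p = 8.54e-04) at 2h, -1.07 ± 0.17 (SE, adjusted p = 3.33e-04) at 4h and 0.69 ± 0.17 (SE, adjusted p = 0.0140) at rev against 4h.

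Sesn2, a leucine sensor that also restrains mTORC1, was at 86.1, 90.9, 70.9 and 73.3 CPM at 0h, 106, 136, 87.7 and 79.0 at 2h, 88.5, 114, 80.4 and 80.2 at 4h and 89.8, 83.6, 78.7 and 84.4 at rev. The groups overlapped, and within each clone both 2h libraries were above both 0h libraries. The log2 change at 2h was 0.33 ± 0.10 (SE, adjusted p = 0.0295), and the call was lost on leaving out any of 6 libraries: each of the 4 at 0h, 2h clone 4 number 2 or 2h clone 8 number 1, with log2 changes down to 0.22 and adjusted p up to 0.127. Vldlr, a lipoprotein receptor, ran from 2.03 to 7.79 CPM with -0.23 at 2h and -0.56 at 4h, and did not pass.

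Few enzymes of amino-acid and one-carbon synthesis passed at 2h and 4h, and 4 of 9 were lower at rev than at 0h. At 2h 1 of 9 (11.1%) fell, Aldh18a1, where 7.48% of all tested genes fell. At 4h 1 of 9 (11.1%) fell, Psph, against 5.56% of all genes. At rev against 0h Aldh18a1, Mthfd2, Psph and Psat1 fell, against 4.94%. At rev against 4h 3 of 9 fell (Aldh18a1, Mthfd2 and Psat1), against 5.1%.

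Aldh18a1 (chr19:40550257-40588463, minus strand), which makes the precursor of proline, was at 59.3, 41.2, 60.7 and 55.3 CPM at 0h, 40.2, 34.4, 39.9 and 38.6 at 2h, 44.5, 42.7, 41.9 and 41.5 at 4h and 23.2, 19.5, 42.7 and 37.5 at rev. Each 2h library lay below each 0h library, and the libraries of clone 4 at rev were the lowest of the 16. The log2 change was -0.50 ± 0.15 (SE, adjusted p = 0.0272) at 2h, -0.88 ± 0.16 (SE, adjusted p = 0.00162) at rev against 0h and -0.54 ± 0.16 (SE, adjusted p = 0.0348) at rev against 4h.

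Mthfd2 (chr6:83305691-83325908, minus strand), a mitochondrial enzyme of the folate cycle, was at 58.1, 42.6, 41.4 and 39.5 CPM at 0h, 42.4, 39.4, 35.8 and 37.6 at 2h, 42.8, 38.6, 36.7 and 31.7 at 4h and 25.3, 27.7, 26.0 and 30.8 at rev. The 4 rev libraries were the lowest of the 16 and overlapped none of the other groups. Mthfd2 had a log2 change of -0.71 ± 0.11 (SE, adjusted p = 6.04e-04) at rev against 0h, -0.45 ± 0.11 (SE, adjusted p = 0.0161) against 4h and -0.50 ± 0.11 (SE, adjusted p = 0.0223) against 2h.

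The serine pathway moved in part. Psat1, its aminotransferase, was at 185, 137, 159 and 162 CPM at 0h, 165, 130.1, 134 and 139.6 at 2h, 141, 159, 143 and 148 at 4h and 119, 112, 111 and 133 at rev. The rev libraries lay below the 0h and 4h libraries without overlap and overlapped those at 2h, with a log2 change of -0.43 ± 0.10 (SE, adjusted p = 0.00812) against 0h and -0.31 ± 0.10 (SE, adjusted p = 0.0479) against 4h. Psph, its last enzyme, was at 18.2, 13.9, 13.0 and 12.5 CPM at 0h, 13.4, 12.3, 11.8 and 9.18 at 2h, 8.67, 12.2, 9.65 and 7.96 at 4h and 9.26, 11.0, 8.78 and 10.4 at rev.

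The 4h and rev libraries of Psph lay below the 0h libraries. For Psph the log2 change came to -0.58 ± 0.14 (SE, adjusted p = 0.0106) at 4h and -0.53 ± 0.14 (SE, adjusted p = 0.0226) at rev against 0h, and Psph shares 10.4% of its exon bases with Cct6a on the opposite strand. Phgdh, its first enzyme, ran from 17.1 to 27.0 CPM with 0.10 at 2h and 0.09 at rev against 0h, and did not pass.

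Asns (chr6:7675169-7693254, minus strand), which makes asparagine and is a standard reporter of ATF4 activity, was at 220.0, 156, 240.4 and 238 CPM at 0h, 243, 235, 221 and 222 at 2h, 132, 169, 227 and 229 at 4h and 229, 221, 221 and 220.4 at rev. The groups overlapped, with the lowest values in the clone 4 libraries at 4h and in 0h clone 4 number 2. The fitted log2 change of Asns was 0.12 ± 0.13 (SE, adjusted p = 0.554) at 2h, -0.18 ± 0.13 (SE, adjusted p = 0.396) at 4h and 0.08 ± 0.13 (SE, adjusted p = 0.760) at rev against 0h. Shmt2 (mitochondrial serine to glycine conversion), Pycr1 (the last step to proline) and Cth (cysteine from cystathionine) had log2 changes of -0.26, -0.05 and -0.10 at 2h and of -0.33, -0.28 and -0.26 at rev against 0h, none past the threshold.

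The transporters did not move as 1 group. At 2h 1 of 5 fell (Slc6a9), where 7.48% of all tested genes fell. At 4h 1 of 5 rose (Slc7a3), where 7.35% of all genes rose. At rev against 0h 2 of 5 fell (Slc6a9 and Slc7a5), against 4.94%. At rev against 4h 2 of 5 fell (Slc7a3 and Slc7a5), against 5.1%.

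Slc7a3 (chrX:101079210-101086020, minus strand), a carrier of arginine and lysine, was at 59.1, 59.6, 50.3 and 47.1 CPM at 0h, 80.3, 70.6, 64.6 and 52.9 at 2h, 97.6, 115, 90.9 and 70.9 at 4h and 63.4, 61.4, 30.9 and 43.2 at rev. The 4h libraries were above those at 0h and at rev without overlap, and in each clone both 2h libraries lay between those of 0h and 4h. The log2 change was 0.31 ± 0.11 (SE, adjusted p = 0.0697) at 2h, 0.78 ± 0.11 (SE, adjusted p = 1.74e-04) at 4h and -0.91 ± 0.12 (SE, adjusted p = 5.55e-05) at rev against 4h, the reverse of the direction at 4h. At 4h the clones taken alone gave 0.82 in clone 4 and 0.74 in clone 8.

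Slc6a9, the glycine transporter GlyT1, was at 8.99, 4.40, 4.57 and 3.59 CPM at 0h, 2.07, 2.21, 2.13 and 1.40 at 2h, 3.33, 3.81, 1.91 and 2.30 at 4h and 1.13, 1.46, 3.94 and 2.05 at rev. The 2h libraries lay below the 0h libraries, with the highest value in 0h clone 4 number 1. Slc6a9 had a log2 change of -1.42 ± 0.31 (SE, adjusted p = 0.00461) at 2h and -1.50 ± 0.34 (SE, adjusted p = 0.00817) at rev against 0h, on counts of 10 to 45 per library. Of its exon bases 30.2% are shared with Gm17114, Ccdc24 and B4galt2 on the opposite strand.

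Slc7a5, the large neutral amino-acid transporter LAT1, was at 209, 167, 174 and 169 CPM at 0h, 179, 150.0, 143 and 137 at 2h, 203, 201, 177 and 167 at 4h and 135, 137, 146 and 151 at rev. The rev libraries lay below those at 0h and 4h without overlap, with a log2 change of -0.34 ± 0.09 (SE, adjusted p = 0.0223) against 0h and -0.39 ± 0.09 (SE, adjusted p = 0.00864) against 4h. Slc3a2, the heavy chain that LAT1 pairs with, ran from 89.0 to 135.5 CPM with 0.05 at 2h and 0.05 at rev against 0h. Slc7a11, the cystine carrier xCT, was the lowest member per length at 0h and had 4 to 33 counts per library, with 0.26 ± 0.34 (SE) at 2h, so that a change of that size could not be detected at this depth.

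The cytosolic tRNA synthetases, which charge tRNAs with amino acids, passed the test in no case at 2h or 4h, and 5 of 10 were lower at rev. At 2h their log2 changes ran from -0.31 to 0.03 and at 4h from -0.21 to 0.21. edgeR called 0 of 10 at each time; with no adjustment 4 of 10 were lower at 2h, and 1 was higher and 2 lower at 4h, at p under 0.05, and DESeq2 called 0 at each. At rev against 0h 5 of 10 fell (Sars, Yars, Nars, Cars and Aars), where 4.94% of all tested genes fell. At rev against 4h 2 of 10 fell (Tars and Nars), where 5.1% of all genes fell. In either direction 17% of all tested genes passed at 2h and 12.9% at 4h.

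Sars, the seryl-tRNA synthetase, was at 122, 92.3, 90.6 and 90.0 CPM at 0h, 114, 99.1, 60.3 and 55.5 at 2h, 89.3, 95.2, 80.1 and 89.6 at 4h and 86.1, 84.3, 55.4 and 62.7 at rev. The rev libraries lay below the 0h libraries without overlap, and the clone 8 libraries at 2h were as low as those at rev. For Sars the log2 change came to -0.46 ± 0.13 (SE, adjusted p = 0.0257) at rev against 0h. Nars, which charges asparagine, was at 184, 144, 144 and 147 CPM at 0h, 162, 145, 127 and 136 at 2h, 161, 164, 138 and 147 at 4h and 128, 115, 119 and 135 at rev.

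The rev libraries of Nars lay below those at 0h and 4h without overlap. The fitted log2 change of Nars was -0.31 ± 0.09 (SE, adjusted p = 0.0295) against 0h and -0.29 ± 0.09 (SE, adjusted p = 0.0441) against 4h. Yars, which charges tyrosine, was at 78.9, 77.8, 70.6 and 74.0 CPM at 0h, 61.9, 54.5, 69.6 and 64.9 at 2h, 70.7, 63.0, 66.9 and 59.0 at 4h and 54.2, 52.1, 60.9 and 73.9 at rev. At rev clone 4 was low and clone 8 overlapped its 0h libraries, with a log2 change of -0.32 ± 0.10 (SE, adjusted p = 0.0473) against 0h.

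Tars, which charges threonine, was at 115, 104, 127 and 117 CPM at 0h, 104, 90.0, 127 and 137 at 2h, 114, 109, 129.8 and 142 at 4h and 86.9, 82.2, 116 and 118 at rev. The groups overlapped, with the lowest values in clone 4 at rev, and the log2 change was -0.31 ± 0.08 (SE, adjusted p = 0.0254) at rev against 4h. Cars and Aars, for cysteine and alanine, had log2 changes of -0.30 (adjusted p = 0.0374) and -0.30 (adjusted p = 0.0295) at rev against 0h, and Aars shares 14.3% of its exon bases with Exosc6 on the same strand. Gars, Eprs, Iars and Wars, for glycine, glutamate with proline, isoleucine and tryptophan, had -0.23, -0.20, -0.21 and 0.12 there and did not pass.

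**Figure D3:**
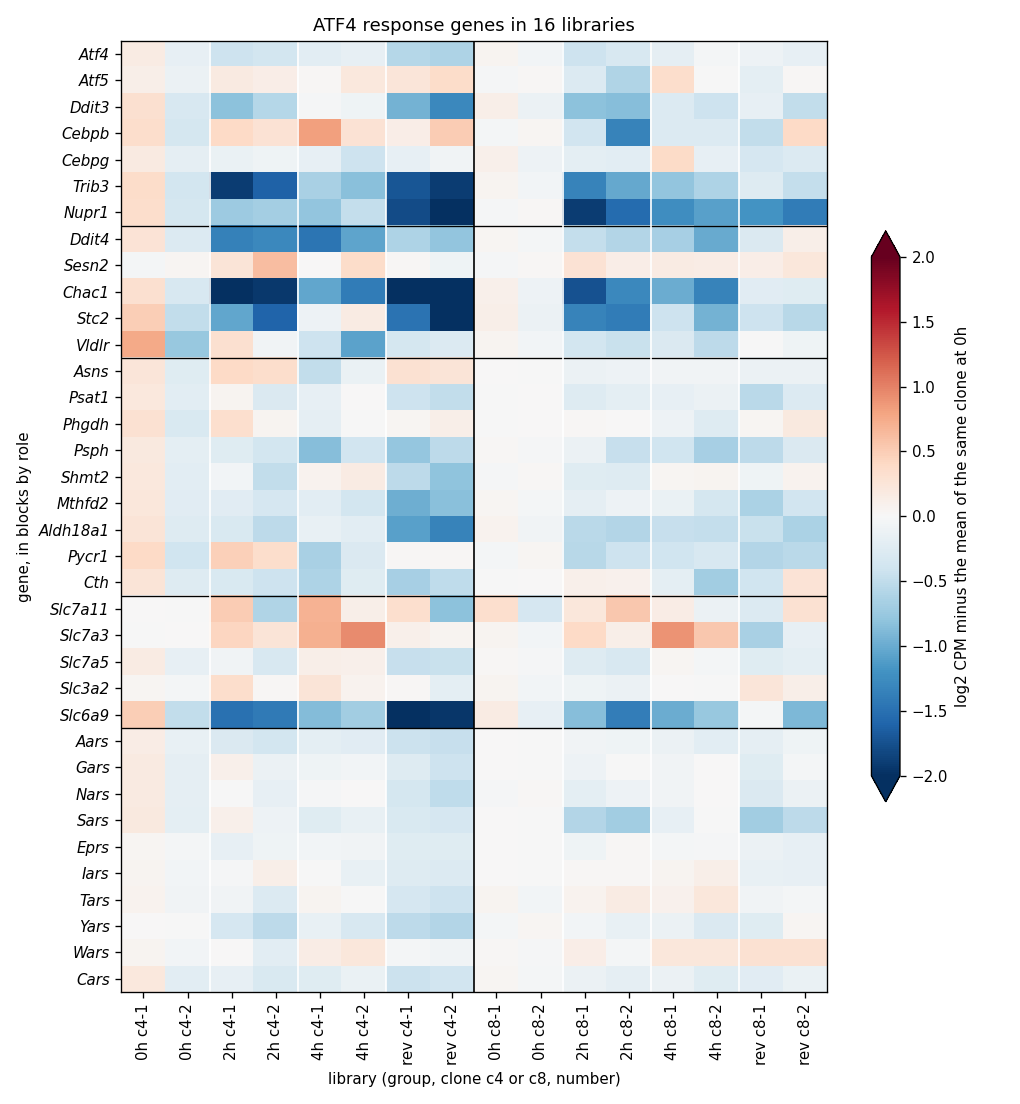
Log2 CPM of each of the 36 genes (rows, in blocks by role) in each of the 16 libraries (columns, clone 4 then clone 8), minus the mean of the same clone at 0h; blue is lower and red is higher, and the scale ends at -2.0 and 2.0. Chac1, Trib3, Nupr1, Stc2 and Slc6a9 are blue in both clones at 2h, and at rev they are darker in clone 4 than in clone 8.

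Several of these calls rested on single libraries. Without 0h clone 4 number 1, the highest 0h library for Atf4, Trib3, Nupr1, Chac1, Stc2 and Slc6a9, 8 of 36 members passed at 2h, 4 at 4h and 6 at rev against 0h. In the same comparison 6 passed without rev clone 4 number 1 and 5 without rev clone 4 number 2. There 14 passed without rev clone 8 number 1, the library with the fewest counts outside the largest features. The calls of Trib3, Nupr1, Psat1, Mthfd2 and Aldh18a1 at rev against 0h held on leaving out any 1 library, with adjusted p up to 0.0296, 0.00317, 0.0431, 0.00468 and 0.0113. The other 12 were lost without at least 1 library, among them rev clone 4 number 2 in each case, with adjusted p up to 0.165 for Yars.

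At 2h the calls of Chac1, Trib3, Stc2, Slc6a9, Nupr1, Ddit4, Ddit3 and Atf4 held on leaving out any 1 library, with adjusted p up to 0.0484 for Atf4. That of Aldh18a1 was lost without 0h clone 4 number 1, 0h clone 8 number 1, 2h clone 4 number 2, 2h clone 8 number 1 or 2h clone 8 number 2, with adjusted p up to 0.113. At 4h against 0h the calls of Slc7a3, Ddit4 and Nupr1 held. Those of Trib3 and Chac1 were lost without 0h clone 4 number 1, 4h clone 4 number 2, 4h clone 8 number 1 or 4h clone 8 number 2, that of Chac1 also without 0h clone 4 number 2, and that of Psph without 4h clone 4 number 1, with adjusted p up to 0.165, 0.122 and 0.054.

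At rev against 4h the calls of Slc7a3 and Slc7a5 held on leaving out any 1 library, with adjusted p up to 0.000424 and 0.0478. The count of 8 became 2 without 4h clone 4 number 1, 5 without 4h clone 4 number 2, 3 without rev clone 4 number 1 and 3 without rev clone 4 number 2. At 4h against 2h the call of Slc7a3 held, and the count of 4 became 2 without 2h clone 8 number 1 and 1 without 2h clone 4 number 2, 2h clone 8 number 2, 4h clone 4 number 1 or 4h clone 4 number 2. At rev against 2h the call of Mthfd2 was lost without 2h clone 4 number 1, 2h clone 8 number 2, rev clone 4 number 1, rev clone 4 number 2 or rev clone 8 number 1, with adjusted p up to 0.126, and 2 members passed without 0h clone 4 number 1 or 4h clone 4 number 1.

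The groups 2h and rev were both taken 2 h after the last compound was added, 4OHT or MEK inhibitor, while 4h was taken 4 h after and 0h before 4OHT. Set against 0h and 4h together, 2h and rev had 15 of 36 members lower (41.7%), where 8.01% of all tested genes were lower, and none higher by edgeR, where 9.73% were (17.7% in either direction). The pooled groups 0h and 4h were not alike: Chac1, Nupr1 and Trib3 were lower at 4h than at 0h. Nor were 2h and rev alike for every member, so a call here does not mean a low value in both. Mean Slc7a3 was 54.0 CPM at 0h, 67.1 at 2h, 93.6 at 4h and 49.7 at rev. Mean Mthfd2 was 38.8 CPM at 2h and 37.4 at 4h, and Mthfd2 fell at rev against 2h. Unadjusted, 20 members were lower and 0 higher at p under 0.05, and DESeq2 called 18. The log2 difference was -1.21 ± 0.23 (SE, adjusted p = 0.00142) for Stc2, -1.05 ± 0.27 (SE, adjusted p = 0.0129) for Chac1, -1.03 ± 0.18 (SE, adjusted p = 9.35e-04) for Nupr1 and -0.99 ± 0.24 (SE, adjusted p = 0.00885) for Slc6a9. Trib3, Ddit3, Aldh18a1, Mthfd2, Slc7a5, Atf4, Slc7a3, Psat1, Sars, Shmt2 and Nars had smaller differences, from -0.95 for Trib3 to -0.21 for Nars. Stc2, Trib3, Slc7a3 and Slc7a5 also passed at 4h against 2h, and Slc7a3, Aldh18a1, Mthfd2, Slc7a5, Psat1 and Nars at rev against 4h. Chac1, Nupr1, Slc6a9, Ddit3, Shmt2, Sars and Atf4 passed in neither of these. Mean Nupr1 in clone 8 was 14.9, 4.39, 6.51 and 5.93 CPM at 0h, 2h, 4h and rev. In clone 4 it was 15.1, 8.84, 9.41 and 3.54. Mean Chac1 went from 4.38 CPM at 4h to 8.46 at rev in clone 8, and from 4.96 to 1.75 in clone 4. For 2h and rev against 0h and 4h, clone 4 and clone 8 taken alone gave log2 differences of -2.05 and -0.33 for Chac1 and -1.63 and -0.68 for Stc2. They gave -1.46 and -0.44 for Trib3, and -1.06 and -0.96 for Nupr1. In clone 8 alone Chac1 (adjusted p = 0.177), Slc6a9, Mthfd2, Shmt2 and Nars did not pass, and in clone 4 alone Sars and Slc7a3 did not. The difference between clones in this contrast was not tested. Of the 15, the calls of Shmt2 and Nars were lost on leaving out 0h clone 4 number 1, rev clone 4 number 1 or rev clone 4 number 2, and that of Nars also without 2h clone 4 number 2, 2h clone 8 number 1 or 4h clone 4 number 2, with adjusted p up to 0.0573 and 0.0682.

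The summed marker lists moved with the groups in part, and some differed between the clones. The 6 markers of primitive endoderm summed to 4.77 to 5.60 CPM at 0h, 3.32 to 4.80 at 4h, 5.71 to 7.19 at 2h and 6.01 to 9.99 at rev, with none of the 6 at 0 in all libraries and 2 of the 3 that were tested, Dab2 and Pdgfra, higher in 2h and rev. The 4 markers of 2-cell-like cells summed to 4.57 and 3.45 CPM at 0h, 17.0 and 16.3 at 2h, 7.24 and 6.89 at 4h and 13.3 and 15.9 at rev in the libraries of clone 8. In the libraries of clone 4 they summed to between 0.0970 and 1.20 CPM in all groups. The 5 mesoderm markers summed to 3.03 to 4.36 CPM at 0h and 5.12 to 10.2 CPM in the other groups. The pluripotency markers at rev lay above every other library of the same clone, at 880 CPM in both libraries against 739 to 842 in clone 4 and at 1118 and 1178 against 937 to 1074 in clone 8. The fibroblast markers summed to 1.06 to 1.35 CPM at 0h and 1.65 to 3.03 at rev. At 4h they summed to 3.47 and 3.30 in clone 4 and to 0.804 and 0.613 in clone 8. These sums were low, and 2 of the 5 fibroblast genes never exceeded 3 counts. The 4 trophoblast markers summed to 43.7 to 64.5 CPM at 0h and 33.3 to 38.9 at 4h. At 2h they summed to 64.8 and 68.7 in clone 4 and to 27.9 and 26.6 in clone 8. The 4 neural markers in clone 4 summed to 36.5 and 37.6 at 0h and to 58.9 and 65.9 at 4h. In clone 8 they summed to 43.5 and 44.3 at 0h and to 45.0 and 44.3 at 4h. The part of these marker lists in the members' changes was not tested.

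The clones differed in level for 13 of 36 members, where 34.9% of all tested genes differed. Clone 8 was higher in 7 (17.1% of all genes) and lower in 6 (17.8%); scaled by library totals, it was higher in 4 and lower in 1. Cth, the cysteine enzyme, was 1.26 ± 0.12 (SE) higher in clone 8 (adjusted p = 7.02e-08). Ddit4, Vldlr, Tars, Aars, Cars and Iars were higher by 0.51 for Ddit4 to 0.16 for Iars. Cebpb, Stc2, Atf5, Sars, Slc7a3 and Sesn2 were lower in clone 8, from -0.94 for Cebpb to -0.31 for Sesn2. The call of Stc2 was lost without 0h clone 4 number 1 or 2h clone 4 number 1, and that of Vldlr without any 1 of 12 libraries, with adjusted p up to 0.0675 and 0.102.

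The change at 2h differed between clones for 4 of 36 members, where 7.94% of all tested genes differed; the change was higher in clone 8 for 1 (2.93% of all genes) and lower for 3 (5.01%). Scaled by library totals, 2 members had the higher change in clone 8 and 0 the lower, and of the 4 only Ddit4 still passed. The change of Nupr1 was lower in clone 8, with -1.76 there and -0.75 in clone 4, a difference of -1.02 ± 0.29 (SE, adjusted p = 0.0266). That of Ddit4 was lower in clone 4, with -1.36 there and -0.55 in clone 8, a difference of 0.80 ± 0.23 (SE, adjusted p = 0.0241). Pycr1 was at 0.39 in clone 4 and -0.48 in clone 8, and Sars at -0.01 and -0.64. The count of 4 became 1 without 0h clone 8 number 1 and 2 without 0h clone 4 number 2, 0h clone 8 number 2, 2h clone 4 number 1, 2h clone 4 number 2 or 2h clone 8 number 1. For the change at 4h against 0h edgeR called 0 of 36, where 5.72% of all genes differed (2.03% higher and 3.69% lower in clone 8); 1 member had an unadjusted p under 0.05 and DESeq2 called 0.

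Of the 3 steps compared between clones, that from 4h to rev had the most members with a difference: 10 of 36 members had different changes, where 13.2% of all tested genes did; 8 had the higher change in clone 8 (6.3% of all genes) and 2 the lower (6.89%). Scaled by library totals the balance turned, with 1 member higher in clone 8 and 5 lower. Of the 10 only Chac1 (1.82), Asns and Pycr1 still passed. Trib3, Stc2, Aldh18a1 and Shmt2 did not, at 0.78, 1.36, 0.29 and 0.07. Chac1, Stc2 and Trib3 were lower at rev in clone 4, while their changes in clone 8 were above 0. Chac1 was at -1.54 in clone 4 and 0.91 in clone 8, a difference of 2.48 ± 0.46 (SE, adjusted p = 3.23e-04). Stc2 was at -1.87 and 0.11, a difference of 1.99 ± 0.47 (SE, adjusted p = 0.00365). Trib3 was at -1.10 and 0.33, a difference of 1.44 ± 0.31 (SE, adjusted p = 0.00149).

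Slc6a9, Nupr1, Ddit3, Aldh18a1 and Shmt2 also had the higher change in clone 8, by 1.77, 1.23, 1.07, 0.96 and 0.72. Asns and Pycr1 went the other way, with differences of -0.64 and -0.72: Asns was at 0.60 in clone 4 and -0.05 in clone 8. Taken alone, clone 4 had 3 members higher and 16 lower at rev against 4h (12.8% and 11.8% of its tested genes, 24.6% in either direction). Clone 8 had 2 higher and 2 lower (3.37% and 3.05%, 6.42% in either direction). At rev against 0h clone 4 alone had 20 lower (7.04% lower, 9.73% higher, 16.8% in either direction). Clone 8 alone had 6 lower (4.63% lower, 5.27% higher, 9.9% in either direction). At rev against 2h clone 4 alone had 4 lower (1.8% lower, 1.5% higher, 3.31% in either direction), while clone 8 alone had 3 higher and 1 lower (1.85% higher, 1.64% lower, 3.49% in either direction). These fits rest on 2 libraries per group. The count of 10 became 6 without 4h clone 4 number 1, 5 without rev clone 4 number 2 and 6 without rev clone 8 number 2. It became 8 without rev clone 8 number 1, the library with the fewest counts outside the largest features. With TMM scaling the calls of Chac1, Trib3, Stc2 and Aldh18a1 held on leaving out any 1 library.

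**Figure D4:**
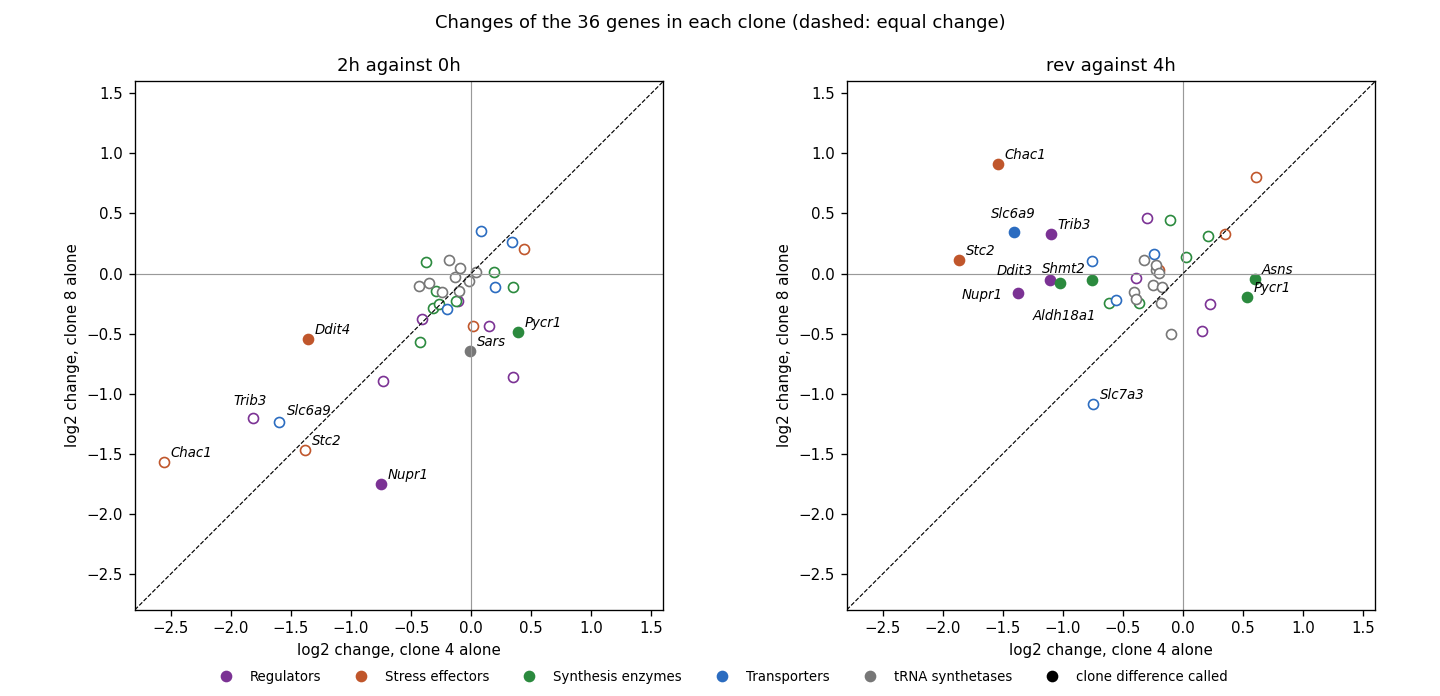
Log2 change of each of the 36 genes in clone 4 alone (x axis) and clone 8 alone (y axis), at 2h against 0h (left) and rev against 4h (right); filled points differed between clones at an adjusted p under 0.05, and the dashed line marks equal change. At 2h Chac1, Trib3, Slc6a9 and Stc2 lie below -1 in both clones, and at rev against 4h they lie below -1 in clone 4 and above 0 in clone 8.

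The members ranged widely in level. Per kilobase of exon, Asns was highest at 0h with 78.1 ± 14.5 CPM per kb (SD, n = 4), followed by Gars at 59.0 ± 7.21, Atf4 at 54.9 ± 5.48 and Slc7a5 at 48.5 ± 5.21, and each of these 4 differed from the next by less than the sum of their SDs. The genes with the largest falls stood low in that order: Trib3 at 9.59 ± 3.52, Chac1 at 6.75 ± 1.57, Nupr1 at 5.96 ± 1.21, Stc2 at 1.63 ± 0.776 and Slc6a9 at 1.05 ± 0.475. The lowest were Vldlr at 0.591 ± 0.230 and Slc7a11 at 0.106 ± 0.0252.

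Falls were seen among members with the element in the promoter stretch searched and among those without it there. That stretch ran from 250 bases before to 50 bases after each start, so an element farther away would be missed. At 2h 3 of the 12 members with TGATGNAA fell (Trib3, Nupr1 and Chac1) and 6 of the 18 without it fell, with median log2 changes of -0.13 and -0.24. At rev against 0h 5 of 12 and 9 of 18 fell, with medians of -0.27 and -0.37. Among all tested genes 7.48% fell at 2h and 4.94% at rev against 0h. The difference between those with and without the element was not tested.

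The members varied together in part. Over the 16 libraries, with clone means removed, the median correlation between 2 members was 0.33 over 630 pairs, and 0.61 over the 45 pairs of tRNA synthetases; these values share the libraries and their scaling. Other genes whose log2 CPM was among the most like the mean of the standardized values of the 36 members, of 12706 compared over 16 libraries, included Arhgef2 (Pearson r = 0.92), Grhpr (0.91), Ncapd2 (0.90) and Cnpy2 (0.90). The mean of the members was highest in 0h clone 4 number 1.

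Among further ATF4 targets and amino-acid transporters, falls outnumbered rises at 2h, 4h and rev against 0h. Of 17 tested further ATF4 targets and amino-acid transporters, 6 fell and 2 rose at 2h, 5 fell at 4h, and 7 fell and 2 rose at rev against 0h. Among all tested genes 7.48% fell and 9.49% rose at 2h, and 5.56% fell and 7.35% rose at 4h. At rev against 0h 4.94% of all tested genes fell and 5.51% rose. Gpt2 (alanine aminotransferase) was at -0.89 (adjusted p = 0.00186) at 2h and -0.98 (adjusted p = 0.00171) at rev. The neutral amino-acid transporters Slc1a5 and Slc1a4 were at -0.62 and -0.66 at 2h, and Slc1a4 at -1.14 at rev. Cdkn1a, the cell cycle inhibitor p21, rose by 0.72 at 2h and 0.86 at rev against 0h.

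Of 8 tested genes for eIF2α kinases, their partners and phosphatase subunits, 1 fell at 2h and 1 at 4h: Ppp1r15a, the stress-induced subunit GADD34, with -0.56 (adjusted p = 0.00368) and -0.53 (adjusted p = 0.00746). Between rev and 0h edgeR called 0 of the 8, with 1 lower at an unadjusted p under 0.05, and DESeq2 called 0. Of the 10 cytosolic tRNA synthetases outside the 36 genes, edgeR called 0 at 2h (1 lower at an unadjusted p under 0.05, DESeq2 called 1), Farsb rose by 0.25 at 4h, and Lars and Mars fell at rev against 0h, with -0.33 and -0.32. Of 17 mitochondrial tRNA synthetases 1 fell at 2h, Vars2 with -0.42, and edgeR called 0 at rev against 0h (2 lower at an unadjusted p under 0.05, DESeq2 called 0). Beside these lists, 7.48% of all tested genes fell at 2h and 17% passed in either direction. At 4h 5.56% of all tested genes fell and 7.35% rose. At rev against 0h 4.94% fell and 10.5% passed in either direction.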

How the data were processed

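RNA-seq counts per gene were deposited by the authors as a table of 16 libraries. The RNA was depleted of ribosomal RNA, per the labels' protocols, and bcl2fastq 2.19.1, STAR 2.5.3a and build mm10 are named in the submitters' processing notes. The counting program, annotation and use of strand are not given in the sources used here. Gene IDs were named through GENCODE M21 (52489 of 52636 matched). Genes were filtered with edgeR 4.0.16 filterByExpr (minimum count 10, minimum total 15) on R 4.3.3, scaled by TMM and tested with edgeR's quasi-likelihood test on all 16 libraries, with clone as a covariate, or with clone by group terms for differences between clones; DESeq2 1.42.0 was an alternative. The fit was tested on simulated data. Log2 CPM had 2 counts added as prior. In each library 3 counts correspond to 0.210 to 0.908 CPM. The 2 libraries of a clone and group differed by more than counting noise in each case, with a chi-square of 1.32 to 4.49 for each degree of freedom. The members, gene lists and tests were chosen with earlier results of these data known. By the naming rule, values in every library were given for Atf4 and, in each role, for up to 4 members with the largest absolute log2 change among those past the threshold in any comparison of groups; Asns was added after its values were seen. The genes most like the members' mean were the 5 with the highest correlation, of which 1 is not reported here.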

Additional observations from a re-analysis of the deposited data

Results flagged for a closer look

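In groups of 4 libraries, 1 library stood far from the other 3 in 10 of 144 groups of member values examined; chance alone flags about 1 in 20 groups. In 0h clone 4 number 1, 6 genes stood high: Cebpb at 6.39 CPM (others 3.79 to 4.02), Shmt2 at 113.5 (80.9 to 84.2), Mthfd2 at 58.1 (39.5 to 42.6), Slc7a5 at 208.6 (167.5 to 174.4), Nars at 183.6 (143.8 to 147.4) and Sars at 121.7 (90.0 to 92.3). In 2h clone 4 number 1, Shmt2 was high at 94.1 CPM (68.7 to 69.9) and Iars low at 162.3 (179.0 to 179.7). Asns was high in rev clone 4 number 1 at 229.3 CPM (220.4 to 221.0), and Slc6a9 was low in 2h clone 8 number 2 at 1.40 CPM (2.07 to 2.21).

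The change differed between clones in 14 cases by edgeR's test of the difference, given as clone 8 minus clone 4 on the log2 scale. At 2h against 0h these were Nupr1 at -1.02, Ddit4 at 0.80, Pycr1 at -0.88 and Sars at -0.64. At rev against 4h they were Chac1 at 2.48, Stc2 at 1.99, Slc6a9 at 1.77, Trib3 at 1.44, Nupr1 at 1.23, Ddit3 at 1.07, Aldh18a1 at 0.96, Shmt2 at 0.72, Pycr1 at -0.72 and Asns at -0.64.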

How the results depend on the processing

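Of 61 calls of members, each under 10 other settings, 468 of 610 values kept direction and call, 142 lost the call and 0 reversed. Scaling by library totals moved the median of all genes by 0.11 at 2h, -0.14 at 4h against 2h, -0.20 at rev against 4h, -0.24 at rev against 0h and -0.35 at rev against 2h, and that of the clone differences by 0.56 at 2h, 0.35 at 4h and -0.67 at rev. With it 6 members passed at 2h (0 higher, 6 lower), 1 at 4h against 2h, 4 at rev against 4h, of which 2 were among the 8 with TMM, 8 at rev against 0h, 7 for 2h and rev against 0h and 4h, and 5 between clones, of which 4 were among the 13. For the clone differences 2 passed at 2h (2 higher, 0 lower; 1 of them among the 4) and 6 at rev (1 higher, 5 lower; 3 of them among the 10).
At an adjusted p under 0.01 the counts were 2 at 4h, 0 at 4h against 2h, 2 at rev against 4h, 6 at rev against 0h, 0 at rev against 2h, 9 for 2h and rev against 0h and 4h, and 2 and 5 for the clone differences at 2h and rev. With no clone covariate they were 2 at 4h, 0 at 4h against 2h, 1 at rev against 4h, 5 at rev against 0h, 0 at rev against 2h and 9 for 2h and rev against 0h and 4h. DESeq2 called 3 at rev against 2h, and 2 and 6 clone differences at 2h and rev; with no filter 4 passed at rev against 2h. Clone 4 alone gave 19 at rev against 4h and 4 at rev against 2h, and clone 8 alone gave 4, 6 and 4 at rev against 4h, 0h and 2h. The cause of these shifts was not tested.

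Leaving out 1 library at a time gave 8 to 12 calls at 2h, 4 to 8 at 4h, 1 to 5 at 4h against 2h, 2 to 10 at rev against 4h, 5 to 19 at rev against 0h, 0 to 2 at rev against 2h, 13 to 16 for 2h and rev against 0h and 4h, 12 to 15 between clones, and 1 to 6, 0 to 0 and 5 to 12 clone differences at 2h, 4h and rev. Deviations of same-numbered libraries, taken over all tested genes, had a mean correlation of -0.01 over 12 pairs (-0.13 to 0.12). Noise in low counts can hide a shared effect, so these values do not show that the numbers marked no pairing. With the replicate block the counts were 10, 5, 3, 8, 15, 1, 15, 13, 4, 0 and 11 in the same order. Low counts limit Slc6a9, Slc7a11, Vldlr, Cebpb and Chac1 most, with fewer than 11 counts in the lowest library of each.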

Other observations

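Lists from 3 other stress pathways were counted in the same way. Of 7 targets of NRF2, the factor of oxidative stress, 5 rose at 2h, 4 at 4h and 5 at rev against 0h. The shares of all tested genes that rose were 9.49%, 7.35% and 5.51%. Txnrd1 and Hmox1, which encode thioredoxin reductase and heme oxygenase, rose by 0.89 and 0.89 at 2h, and Gclc, of glutathione synthesis, by 0.87 at 2h and 1.03 at rev. Of 7 p53 targets 4 rose at 2h, among them Mdm2 by 0.77 and Ccng1 by 0.76, and at 4h Sesn1 and Zmat3 fell, with -0.78 and -0.38. At 2h 9.49% of all tested genes rose, and at 4h 5.56% fell. Of the 7 p53 targets 3 rose at rev against 0h, where 5.51% of all tested genes rose. At rev against 4h 5 of the 7 rose, where 4.5% of all tested genes rose.

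Of 15 genes of the unfolded protein response, 2 rose at 2h (Dnajb9 by 0.64 and Atf6 by 0.39) and 1 at 4h (Xbp1 by 0.53). At rev against 0h 3 fell: Xbp1, Pdia4 and Hsp90b1, with -0.48, -0.39 and -0.27. Over all tested genes 9.49% rose at 2h, 7.35% rose at 4h and 4.94% fell at rev against 0h.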
